A study of Rattus norvegicus with 6 samples.

Results

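The small leucine-rich proteoglycans are secreted matrix proteins, and 10 of them were looked up by symbol in the gene table: Bgn, Dcn, Aspn, Fmod, Lum, Prelp, Kera, Omd, Epyc and Ogn. Of these, 9 had a row among the 19088 gene rows, and 8 had enough counts to be tested. Kera (keratocan, a keratan sulfate proteoglycan best known from the cornea) had no row and is given as not detected. A missing row alone does not show that a transcript was absent. Epyc (epiphycan) had 4 counts in 1 library and 0 in the others.

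The cells were primary nucleus pulposus cells of rats of the strain SD, grown in medium with 10% fetal bovine serum. In the Control group, 3 samples received the solvent DMSO for 48 h. In the rShh group, 3 samples received recombinant Sonic hedgehog, a secreted signalling protein, at 200 ng/ml in DMSO for 48 h. Poly(A) RNA was sequenced in paired reads of 150 bases. The labels give neither the age and sex of the animals nor the animals or cultures from which each sample was taken, so the p-values rest on the variation among these 3 samples per group, and that variation may be technical.

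Each protein of the family has a core of leucine-rich repeats that binds fibrillar collagen, and most carry glycosaminoglycan chains. Class I members (Bgn, Dcn, Aspn) include the chondroitin and dermatan sulfate proteoglycans, and class II members (Fmod, Lum, Prelp, Kera, Omd) include those that carry keratan sulfate. Of the listed members, class III holds Epyc and Ogn. In the intervertebral disc they regulate how collagen fibrils assemble and hold growth factors in the matrix around the cells.

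In the rShh samples Dcn, Lum and Prelp were higher, Fmod, Omd, Ogn and Bgn were lower, and Aspn did not pass the test. The largest differences were 30.1-fold for Dcn (higher) and 8.13-fold for Fmod (lower), in CPM, the counts scaled to a common effective library size. The differences did not follow the classes: class I held 1 higher member, 1 lower member and 1 that did not pass, class II held 2 higher and 2 lower members, and the class III member Ogn was lower. Calls are from edgeR's quasi-likelihood test with Benjamini-Hochberg adjustment over all 14775 genes tested, at an adjusted p below 0.05. By this rule 60.3% of all tested genes were called, 31.5% as higher and 28.8% as lower. The 7 calls among the 8 tested members stand against this background, in which most genes were called. The median log2 change was -0.48 over the 8 tested members and 0.01 over all tested genes. Control and rShh values did not overlap for any of the 8, as for 68.1% of all tested genes.

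Total counts ranged from 50758195 to 55501124 over Control and from 65116846 to 70031072 over rShh, and 3 counts corresponded to 0.0431 to 0.0591 CPM. The Y-linked genes Ddx3, Eif2s3y and Kdm5d had 0 counts in every Control library and between 2235 and 7120 in each rShh library, so whatever sets the Y-linked transcripts apart and the treatment cannot be told apart. Mitochondrial transcripts took 1.97 to 2.28% of counts in Control and 3.25 to 3.36% in rShh. The marker calls that follow stand beside 31.5% of all tested genes called higher and 28.8% called lower. Of 16 nucleus pulposus marker symbols, of which T and Tbxt name the same gene, 9 had a row and 8 were tested. Of these, 2 were higher (Acan and Sox9) and 5 lower (Krt8, Cd24, Pax1, Col2a1 and Foxa2) in rShh. T (also looked up as Tbxt), Krt19, Car12, Car3, Shh and Noto had no row, and Krt18 stayed under 1 CPM. The summed level of this list was 256 to 273 CPM in Control and 706 to 744 CPM in rShh, and Acan carried that difference, with 56.5 ± 7.97 and 586 ± 14.5 CPM (SD, n = 3). Markers of some other cell types also moved with the groups, while those of others did not. The annulus and tendon list, with 6 of 7 genes in the table, summed to 33636 to 36746 CPM in Control and 16222 to 17045 CPM in rShh, mostly Col1a1. Of its 5 tested genes Col1a1 and Scx were lower, whereas Thbs4, Fibin and Mkx were higher. The osteoblast list (6 of 6) summed to 22.5 to 26.2 CPM in Control and 140 to 146 CPM in rShh, mostly from Ibsp (1.37 ± 0.624 and 112 ± 2.40 CPM), while Alpl was lower and Sp7 and Bglap were under 1 CPM. The smooth muscle and pericyte list (4 of 4) summed to 3320 to 5087 and 5772 to 6186 CPM, mostly Acta2, which did not pass (edgeR adjusted p = 0.0507), while Myh11, Cnn1 and Rgs5 were higher. The neural list (4 of 4) summed to 347 to 384 and 82.7 to 87.3 CPM, with S100b and Tubb3 lower. The chondrocyte list (7 of 7) summed to 124 to 137 and 164 to 181 CPM, mostly Hapln1, which was higher, while Col2a1, Col9a1 and Matn3 were lower. The endothelial list (2 of 6) summed to 4.86 to 7.00 and 1.89 to 2.22 CPM, with Tek lower and Pecam1, Cdh5, Kdr and Emcn without a row. The macrophage and leukocyte list (4 of 7) overlapped, with sums of 11.0 to 14.1 and 12.9 to 15.5 CPM. None of its 3 tested genes was called. The muscle list (3 of 5) also overlapped, with 55.9 to 92.7 and 84.5 to 107 CPM, Des higher and Acta1 not passing. The epithelial (2 of 4), adipocyte (3 of 3) and red cell (1 of 3) lists summed to under 1 CPM in every library. Every gene row held at least 1 count over the 6 libraries, so no listed gene with a row could be at 0 in all of them. The part of the marker shifts in the family's differences was not tested. In such bulk RNA, fewer cells of a type and less RNA per cell cannot be told apart.

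**Figure D1:**
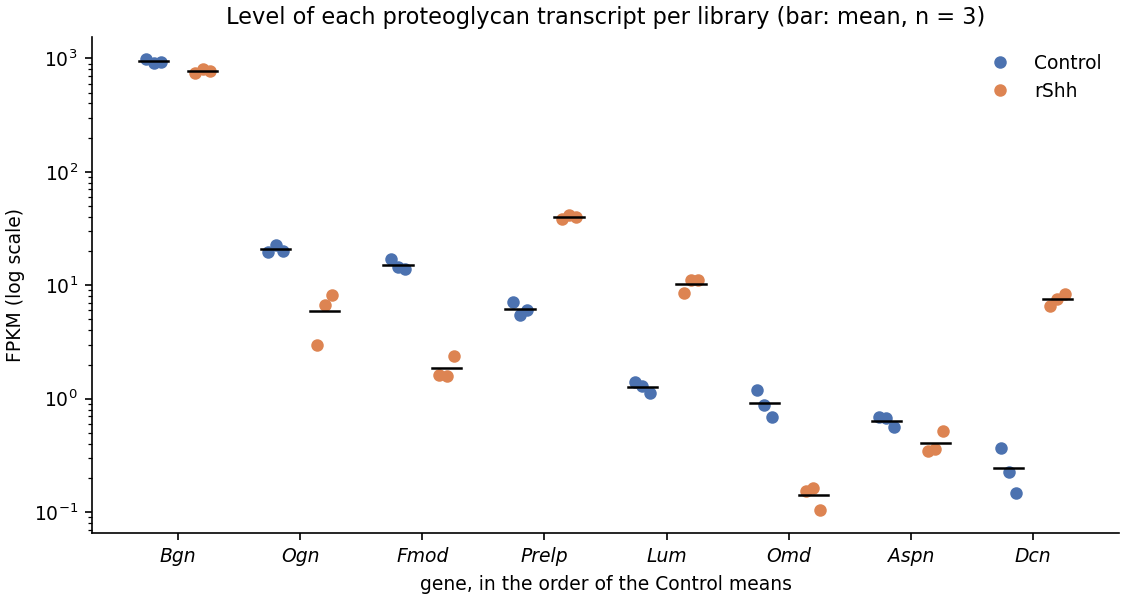
Level of the 8 tested members in each library, as FPKM (fragments normalized for transcript length and library depth) on a log scale, with Control in blue, rShh in orange and the mean of 3 libraries as a bar. Bgn stands above all others in both groups, while the member row of Dcn goes from the lowest of the 8 in Control to the fourth in rShh.

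Bgn encodes biglycan, which carries chondroitin or dermatan sulfate chains. Its gene (ENSRNOG00000055962) lies on the minus strand at chrX:157319046-157331204 in the table's coordinates, whose build is not given in the sources used here. Counts were 159122, 143435 and 137801 in Control 1 to 3 and 140907, 158042 and 146360 in rShh 1 to 3, which correspond to 981, 917 and 931 FPKM and 745, 798 and 779 FPKM. The raw counts of the groups overlapped because the rShh libraries were deeper, whereas the FPKM values did not. Bgn ranked 48th to 65th of all genes by FPKM. It fell 1.23-fold, from 2734 ± 72.2 to 2230 ± 42.7 CPM (SD, n = 3), a log2 change of -0.29 (SE 0.04, edgeR adjusted p = 1.48e-04). The spread between replicates of Bgn was the smallest of the family, with a coefficient of variation of 2.64% in Control and 1.92% in rShh. The difference did not pass edgeR's test against a 2-fold change (adjusted p = 1).

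Dcn and Lum lie next to each other on chromosome 7, both on the plus strand and 37.4 kb apart. Dcn (ENSRNOG00000004554, chr7:38742051-38782323) encodes decorin, which binds collagen fibrils and transforming growth factor beta. Its counts were 46, 27 and 17 in Control 1 to 3 and rose to 949, 1154 and 1210 in rShh 1 to 3. In FPKM these were 0.366, 0.224 and 0.147 against 6.53, 7.59 and 8.39. All 3 Control libraries were near the bottom of the measured range and all 3 rShh libraries were far above them. The mean rose from 0.550 ± 0.243 to 16.6 ± 1.88 CPM (SD, n = 3), a log2 change of 4.89 (SE 0.25, edgeR adjusted p = 1.15e-07). The Control values varied by 44.1% (coefficient of variation), so the fold is less precise than the separation of the groups.

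Lum (ENSRNOG00000004610, chr7:38819771-38826862) encodes lumican, a keratan sulfate proteoglycan that limits the width of collagen fibrils. Its counts were 191, 170 and 137 in Control and 1348, 1826 and 1733 in rShh, or 1.42, 1.30 and 1.11 against 8.57, 11.1 and 11.1 FPKM. Every rShh library was above every Control library. Lum rose 7.96-fold, from 3.08 ± 0.346 to 24.5 ± 3.14 CPM (SD, n = 3), with a log2 change of 2.99 (SE 0.14, edgeR adjusted p = 7.77e-08). Dcn changed more than its neighbour: the log2 ratio of Dcn to Lum in FPKM went from -2.47 ± 0.486 to -0.45 ± 0.087, a difference of 2.02 with no overlap of the groups. By an exact two-sided permutation test p was 0.1, the smallest that 3 against 3 samples allow, and 0.12 after adjustment over the 6 ratios tested. Epyc, 70.4 kb beyond Lum at chr7:38897278-38934985, was not tested. RefSeq's GRCr8 annotation places Kera between Lum and Epyc.

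Prelp and Fmod also share a chromosome segment, 112 kb apart on chromosome 13 on opposite strands, and they differed in opposite directions. Prelp (ENSRNOG00000003120, chr13:50749514-50761306, minus strand) encodes a basic protein that binds collagen and heparan sulfate. It had 1716, 1279 and 1349 counts in Control and 10938, 12314 and 11200 in rShh, or 7.06, 5.46 and 6.08 against 38.6, 41.5 and 39.8 FPKM. The 3 rShh values lay close together, with a coefficient of variation of 2.23%, and none came near the Control values. Prelp rose 6.41-fold, from 26.9 ± 3.27 to 173 ± 3.85 CPM (SD, n = 3, log2 change 2.68, SE 0.09, edgeR adjusted p = 6.36e-09).

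Fmod (ENSRNOG00000003183, chr13:50873605-50885563, plus strand) encodes fibromodulin, a keratan sulfate proteoglycan that binds collagen at a site it shares with lumican. It had 4018, 3304 and 2981 counts in Control and 451, 458 and 652 in rShh, or 16.9, 14.4 and 13.8 against 1.63, 1.58 and 2.37 FPKM. No rShh library reached the lowest Control library. Fmod fell 8.13-fold, from 63.8 ± 6.44 to 7.84 ± 1.84 CPM (SD, n = 3, log2 change -3.02, SE 0.15, edgeR adjusted p = 1.13e-07). The order of the pair turned over: Fmod was at 2.43 times the FPKM of Prelp in Control, and Prelp was at 21.9 times that of Fmod in rShh. The log2 ratio of Fmod to Prelp differed by -5.73, and that of Fmod to Lum by -6.04, each without overlap and each with the smallest possible exact permutation p of 0.1 (adjusted 0.12). The other genes of the segment did not fall with Fmod. Btg2, an anti-proliferative gene on its far side, rose from 38.1 ± 2.33 to 187 ± 8.26 CPM (n = 3, log2 change 2.30, edgeR adjusted p = 3.3e-09). Optc (opticin), beside Prelp, is a small leucine-rich proteoglycan that is not among the listed members. It had 0 to 12 counts in Control and 17 to 40 in rShh and did not pass (edgeR adjusted p = 0.0626).

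**Figure D2:**
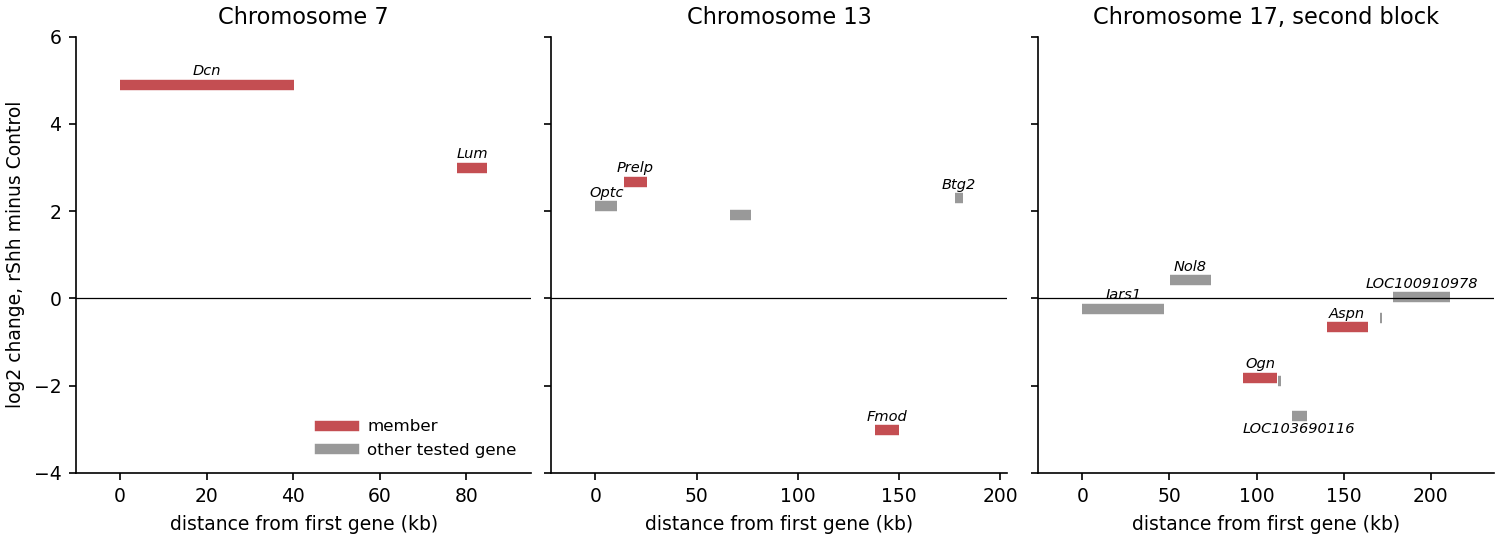
Log2 change (rShh minus Control, edgeR) of each tested gene against its distance in kb from the first gene of the segment, for the chromosome 7, 13 and 17 clusters, with members in red and other genes in grey and the bar as long as the gene. Dcn and Lum lie above 0, Prelp (2.68) and Fmod (-3.02) lie on opposite sides of it, and Ogn (-1.82) and the osteomodulin row beside it (-2.70) lie below it.

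The promoters of Fmod and Omd, the members with the largest decreases, are shown as the 250 bases before the annotated start, from RefSeq on GRCr8, whose coordinates are separate from those of the table. RefSeq promoters matched 7 of the 10 members. Capitals mark matches to a GC box (GGGCGG) and a CCAAT box (CCAAT), and the Omd window held no match to any of the 5 motifs searched. The windows are chr13:48045317-48045566 (plus strand) for Fmod and chr17:15274871-15275120 (minus strand) for Omd, each printed along its gene's strand.
Fmod: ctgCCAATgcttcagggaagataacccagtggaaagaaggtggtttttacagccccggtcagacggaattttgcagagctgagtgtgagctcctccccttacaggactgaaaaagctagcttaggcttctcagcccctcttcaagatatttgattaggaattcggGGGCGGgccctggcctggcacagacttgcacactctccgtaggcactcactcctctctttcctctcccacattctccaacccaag
Omd: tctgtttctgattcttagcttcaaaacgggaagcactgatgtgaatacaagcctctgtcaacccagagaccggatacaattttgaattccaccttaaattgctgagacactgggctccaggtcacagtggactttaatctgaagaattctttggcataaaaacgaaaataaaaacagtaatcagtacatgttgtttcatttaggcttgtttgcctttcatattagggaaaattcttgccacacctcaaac

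In the Fmod window the GC box began 85 bases and the CCAAT box 247 bases before the start. Over all 33469 promoters of the same length, searched on both strands, 30.5% held a GC box and 34.0% a CCAAT box. The GLI motif GACCACCCA, the letters bound by the transcription factors at the end of hedgehog signalling, was in 0.338% of promoters and in none of the 7 member windows. The AP-1 motif TGANTCA was in 6.34% of promoters and in no member window, and TATAAA was in 12.9% and, among the members, in the window of Ogn. The CCAAT box was also in the windows of Lum and Kera. The windows of Lum, Ogn and Aspn lay partly inside the annotated gene, so matches there are not matches upstream of it alone. These matches describe the letters of the windows only.

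Omd, Ogn and Aspn belong to the chromosome 17 cluster, and each had a second row in the table. The table lists osteoglycin, osteomodulin and asporin (or asporin-like 1) rows in this order in 2 blocks, with the osteoglycin rows 820 kb apart, whereas RefSeq's GRCr8 annotation lists Ogn, Omd and Aspn once each and gives Aspnl1 as another name of Aspn. Reads of near-identical copies can be split between such rows, so the values of each member row are uncertain and are given with the sum, an addition made after the data were seen.

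Ogn (ENSRNOG00000047786, chr17:15447716-15467359, minus strand) encodes osteoglycin, or mimecan. The member row had 1952, 2191 and 1828 counts in Control and 344, 812 and 953 in rShh, or 19.5, 22.7 and 20.0 against 2.95, 6.64 and 8.21 FPKM. It fell 3.53-fold, from 37.1 ± 3.29 to 10.5 ± 4.72 CPM (SD, n = 3, log2 change -1.82, SE 0.28, edgeR adjusted p = 2.52e-04). The rShh libraries varied by 44.8% in this row, with rShh 1 the lowest.

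The row NEWGENE_1308171, also described as osteoglycin (chr17:14607442-14627937), held more of the reads, with 7519, 4981 and 4064 counts in Control and 2620, 2063 and 2094 in rShh. It fell with a log2 change of -1.58 (SE 0.18, edgeR adjusted p = 3.24e-05). Summed, osteoglycin had 9471, 7172 and 5892 counts in Control and 2964, 2875 and 3047 in rShh. The groups stayed apart and the rShh spread went from 44.8% to 6.43%, with rShh 1 no longer below the others. The Control spread went the other way, from 8.87% in the member row to 18.8% in the sum. The sum fell 3.12-fold, from 139 ± 26.1 to 44.6 ± 2.87 CPM (SD, n = 3, log2 change -1.64, SE 0.12, edgeR adjusted p = 1.5e-06). The member row held between 11.6 and 31.3% of the sum, with the lowest share in rShh 1.

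Omd (ENSRNOG00000046658, chr17:14635184-14637832, minus strand) encodes osteomodulin, or osteoadherin, a keratan sulfate proteoglycan known from mineralized matrix. It had 151, 108 and 81 counts in Control and 23, 26 and 16 in rShh, or 1.18, 0.874 and 0.692 against 0.155, 0.164 and 0.104 FPKM. Both groups were low, and the groups did not overlap. Omd fell 6.44-fold, from 2.09 ± 0.541 to 0.325 ± 0.0702 CPM (SD, n = 3, log2 change -2.68, SE 0.38, edgeR adjusted p = 1.56e-04). The other osteomodulin row, LOC103690116 (chr17:15475710-15484269), had 178, 117 and 96 counts in Control and 26, 32 and 16 in rShh, and its log2 change of -2.70 was close to that of the member row. The log2 ratio of Omd to Ogn in the member rows differed by -0.77 and the groups overlapped (exact permutation p = 0.3). With the copies summed, its mean was -4.86 in Control and -5.95 in rShh, a difference of -1.08, and the groups did not overlap. No test was run on the ratio of the sums, so the overlap holds for the member rows only.

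Aspn (ENSRNOG00000050431, chr17:15495790-15519282, minus strand) encodes asporin, which has a run of aspartate residues and binds collagen. It had 109, 102 and 81 counts in Control and 64, 69 and 94 in rShh. In CPM the groups did not overlap, with 1.81 ± 0.184 in Control and 1.14 ± 0.256 in rShh (SD, n = 3), but the log2 change of -0.67 (SE 0.30) did not pass (edgeR adjusted p = 0.0768). Aspnl1 had 84, 52 and 32 counts in Control and 48, 74 and 92 in rShh, with a log2 change of 0.06. Summed, asporin had 193, 154 and 113 counts in Control and 112, 143 and 186 in rShh. The groups of the sum overlapped in CPM, and its log2 change was -0.36 (SE 0.26, edgeR adjusted p = 0.259).

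**Figure D3:**
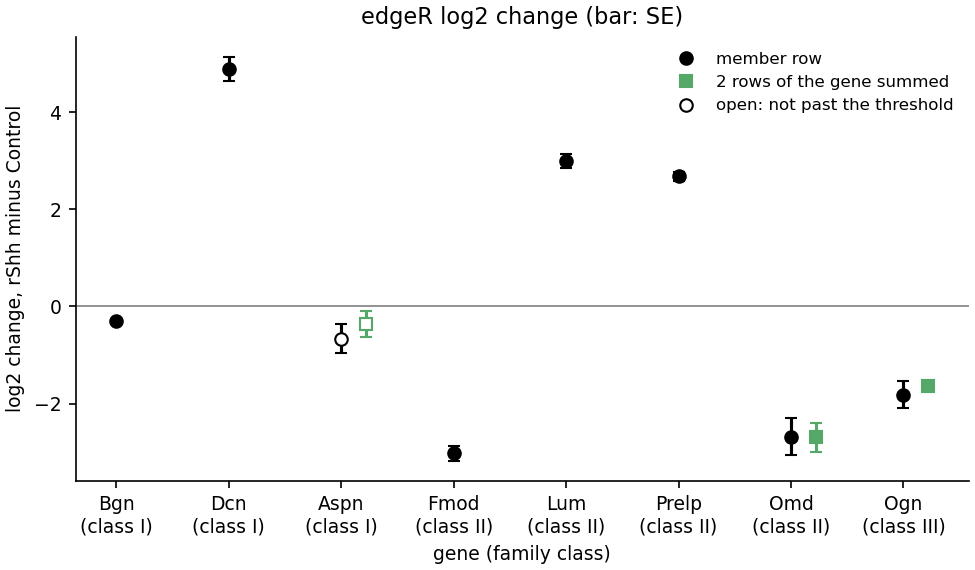
Log2 change (rShh minus Control) with its standard error from edgeR for the 8 tested members by class, as circles, and for the 2 rows of Aspn, Omd and Ogn summed, as green squares. Summing left Omd near -2.69 and Ogn at -1.64, and it moved Aspn from -0.67 to -0.36, with both Aspn values open because they did not pass.

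By FPKM of the member rows, which allows levels to be compared between genes of different length, the Control order was Bgn, Ogn, Fmod, Prelp, Lum, Omd, Aspn and Dcn. In this order only Lum and Omd overlapped as neighbours. In rShh the order was Bgn, Prelp, Lum, Dcn, Ogn, Fmod, Aspn and Omd, and only Dcn and Ogn overlapped. Fmod went from the third to the sixth place and Omd from the sixth to the eighth. The order depends on the duplicated rows. With the copies summed, Ogn was at 16.7 ± 1.48 FPKM in rShh (SD, n = 3), above every Lum and Dcn value and so in the third place, and Omd in Control was at 1.85 ± 0.516 FPKM, above the mean of Lum (1.28 ± 0.154) with the 2 ranges just touching. The third and sixth places of Fmod and the last place of Omd in rShh were the same in the summed order.

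The summed FPKM of the family was 988 ± 35.2 in Control and 840 ± 32.9 in rShh (SD, n = 3), most of it Bgn. The share of Bgn was 95.4, 95.3 and 95.6% in Control and 92.7, 92.0 and 91.7% in rShh. Prelp went from 0.626 ± 0.0598% to 4.76 ± 0.0643% of the family. These shares are descriptions and were not tested, since parts of a whole are not independent.

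Without Bgn, a view added after the data were seen, the makeup of the rest differed between the groups. In Control, Ogn held 46.1 ± 4.28% and Fmod 33.4 ± 2.28% of the remaining FPKM, and Prelp held 13.8 ± 1.60%. In rShh, Prelp held 60.8 ± 4.63%, Lum 15.5 ± 0.789% and Dcn 11.3 ± 0.491%, while Ogn was at 8.76 ± 3.40% and Fmod at 2.81 ± 0.537% (SD, n = 3). The total without Bgn was 45.1 ± 2.45 FPKM in Control and 66.1 ± 6.38 FPKM in rShh with the member rows, and the groups did not overlap. With the copies of Ogn, Omd and Aspn added, it was 78.8 ± 11.8 and 77.6 ± 5.00 FPKM, and the groups overlapped. In this summed view Ogn held 67.2 ± 1.17% in Control and 21.6 ± 1.09% in rShh, where it came after Prelp (51.6 ± 2.50%) and before Lum (13.2 ± 1.11%) and Dcn (9.64 ± 0.610%).

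**Figure D4:**
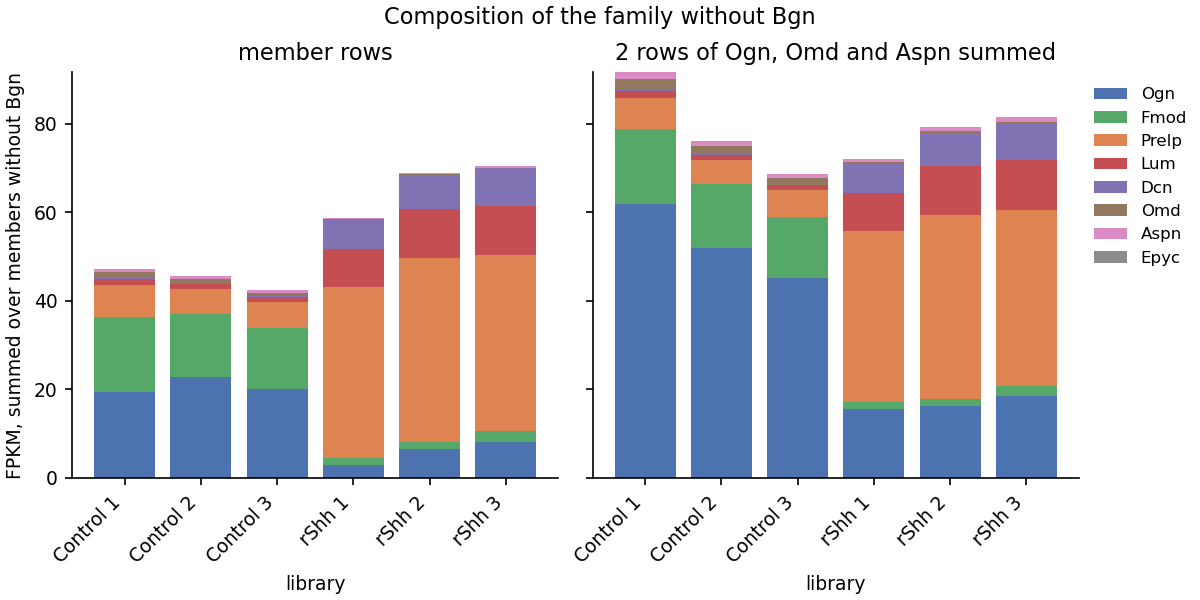
FPKM of the members without Bgn, stacked for each library, from the member rows (left) and with the 2 rows of Ogn, Omd and Aspn summed (right). Ogn and Fmod make up most of the Control columns and Prelp, Lum and Dcn most of the rShh columns in both panels, while the height of the columns differs between groups (45.1 against 66.1 FPKM) in the left panel only.

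The transcript table held 13 rows for the members, of which 11 were tested by edgeR over 18180 transcripts. Of the 11, 4 were called higher and 4 lower, against 23.8% and 21.3% of all tested transcripts. Bgn, Dcn, Fmod, Lum, Omd and Epyc had 1 transcript each, with the same counts as the gene row. Prelp had 3. ENSRNOT00000004241 (3 exons, 1498 nt) held between 19.9 and 26.1% of Prelp counts in every library and rose with a log2 change of 2.68 (SE 0.16). The other two, ENSRNOT00000079116 (2 exons, 3475 nt) and ENSRNOT00000076610 (3 exons, 3545 nt), changed places between libraries of the same group. The first of them held 48.8, 51.8 and 14.2% of Prelp counts in Control and 58.2, 3.43 and 55.8% in rShh. Its log2 change of 2.69 (SE 1.03) did not pass (edgeR adjusted p = 0.0786). The gene total had a coefficient of variation of 12.1% in Control and 2.23% in rShh.

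Counts of Ogn and Aspn also moved between transcripts from library to library. The 6-exon Ogn transcript ENSRNOT00000072490 had 1230 counts in Control 1, 749 in rShh 3 and 0 in the other 4 libraries, which gave all Ogn reads to the 7-exon ENSRNOT00000093561. For Aspn, the 8-exon ENSRNOT00000093577 held 71.6, 100 and 0% of counts in Control and 100, 100 and 53.2% in rShh. Transcript counts were assigned by the authors' tools, and the coefficient of variation of Prelp over the whole gene was 12.1% in Control and 2.23% in rShh, as given above.

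**Figure D5:**
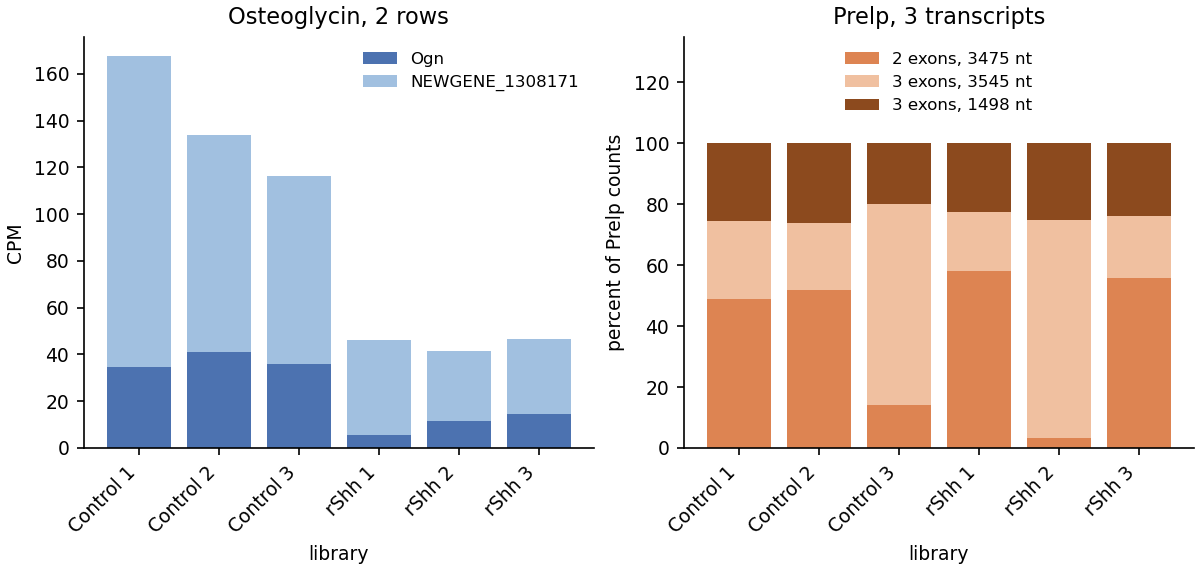
Left, CPM of the 2 osteoglycin rows stacked for each library. Right, percent of Prelp counts in each of its 3 transcripts, where the 3475 nt transcript holds 3.43 to 58.2% in the rShh libraries and the 1498 nt transcript holds 19.9 to 26.1% in all 6.

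Of 8 other small leucine-rich genes, 6 were tested, and none was called higher and 1 lower, against 31.5% and 28.8% of all tested genes. The gene called lower was Tsku (tsukushi), which fell from 111 ± 5.13 to 89.9 ± 4.28 CPM (n = 3, log2 change -0.30, edgeR adjusted p = 0.00182). Podnl1 was at 13.4 ± 0.618 and 12.9 ± 0.909 CPM. Optc, Nyx, Chad and Chadl were under 1 CPM on average in both groups, and Podn and Ecm2 had no row under these symbols.

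The counts for the related lists that follow stand beside 31.5% of all tested genes called higher, 28.8% called lower and a median log2 change of 0.01, and nothing particular to a list is read from them. Of 20 tested genes of enzymes for chondroitin and dermatan sulfate chains, 10 were higher and 5 lower, with a median log2 change of 0.35. Chsy3, a chondroitin synthase, rose from 26.2 ± 2.29 to 155 ± 8.22 CPM (log2 change 2.56, edgeR adjusted p = 4.51e-09), and Chst15, a sulfotransferase, from 0.571 ± 0.313 to 10.5 ± 0.814 CPM (4.19, adjusted p = 1.93e-06). Chst14, the dermatan 4-O-sulfotransferase, fell from 48.7 ± 4.58 to 24.7 ± 0.339 CPM (-0.98, edgeR adjusted p = 4.79e-06). Of 11 tested genes for keratan sulfate, 6 were higher and 3 lower, with a median of 0.76. The 3 with the smallest p were B4galt1 (41.2 to 101 CPM), St3gal1 (20.9 to 52.5 CPM) and B3gnt2 (35.6 to 72.5 CPM), which extend or cap such chains, and all 3 rose.

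Of 10 tested collagens that the family binds, 2 were higher and 7 lower, with a median log2 change of -0.68 (all tested genes: 31.5% higher, 28.8% lower). Col1a2 and Col6a3, also on the list, had no row under these symbols, which does not show that their transcripts were absent. Col12a1 and Col14a1, which sit on fibril surfaces, fell by 2.86 and 1.95 on the log2 scale, and Col1a1 by 1.10. The list of proteases that process or cleave members also holds Pcolce, which is a protease enhancer and not a protease. Of its 12 tested genes, 6 were higher and 3 lower, Pcolce among the lower, with a median of 0.24. Mmp3 rose by 2.81 on the log2 scale, Mmp13 from 1.92 ± 0.251 to 28.5 ± 2.81 CPM and Ctsk, cathepsin K, from 1.14 ± 0.620 to 44.5 ± 2.37 CPM (n = 3). Of 19 tested ligands and receptors, 8 were higher and 6 lower, with a median of 0.16 (all tested genes: 31.5% higher, 28.8% lower, median 0.01). Itga2, the collagen receptor subunit, rose from 0.506 ± 0.104 to 6.68 ± 0.691 CPM and Fbn1, fibrillin-1, from 276 ± 15.3 to 473 ± 8.70 CPM, while Lrp1, an endocytic receptor that takes up decorin, fell by 0.58 on the log2 scale.

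Dcn had the largest log2 change of the family. Patterns were compared by Euclidean distance of centred log2(CPM + 0.5) over the 6 samples, among 8140 tested genes with a mean of at least 10 CPM. The offset of 0.5 shrinks differences at low levels, such as those of Dcn in Control. The patterns nearest to that of Dcn were those of Stc1 (stanniocalcin 1, distance 0.418), Mmp10 (stromelysin-2, 0.487) and Clic2 (0.614). Stc1 was at 1.09 ± 0.212 and 21.9 ± 2.57 CPM, Mmp10 at 3.46 ± 0.789 and 58.8 ± 2.19 CPM, and Clic2 at 7.17 ± 2.18 and 121 ± 6.19 CPM in Control and rShh (SD, n = 3). The distance mostly reflects the difference between the groups, which these genes share with Dcn.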

How the data were processed

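RNA of 6 samples was used as gene and transcript tables that the authors deposited. Per the file headers these hold read counts and FPKM values, and FPKM is normalized by the authors for transcript length and library depth. Per the submitters' processing notes, HISAT2 2.0.4 and StringTie 1.3.4d were among the tools, as were cutadapt 1.9, edgeR and DESeq2. The genome build was not given in the sources used here, nor was the strand setting of counting. Counts were tested in R 4.3.3 with edgeR 4.0.16 (TMM factors, filterByExpr with a minimum of 10 counts, group as the only term). The SE is the absolute log2 change divided by the root of the F statistic. The procedure was tested on simulated data in which few genes changed, up and down alike. That test does not cover data like these, in which most genes were called. DESeq2 1.42.0 and limma 3.58.1 (on log2(FPKM + 1) or + 0.1, mean of at least 1 FPKM) were alternatives. Samples were not paired, because the labels do not say that same-numbered samples share an animal or culture. In a check, same-numbered Control and rShh samples did not deviate together. Replicate libraries differed by more than counting noise.

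All 10 members were named whatever their values. So were the other small leucine-rich genes, up to 3 genes per related list with the smallest p, and the 3 patterns nearest to the tested member with the largest absolute log2 change and at least 1 FPKM in a group. Members and lists were chosen with earlier results of these data known.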

Additional observations from a re-analysis of the deposited data

How the results depend on the processing

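The count of 3 higher members held under all 16 alternatives (DESeq2, other scalings, limma on FPKM, no filter on low counts, the replicate block, each library left out, the 2-fold test and summed copies, the last added after the data were seen). The count of lower members was 4, or 3 with limma on FPKM, where Omd and Aspn were below a mean of 1 FPKM and had no value, and 3 in the 2-fold test, which Bgn did not pass. The sign of each tested member's log2 change was the same wherever a value could be had. The log2 change of Bgn ranged from -0.36 (upper-quartile scaling) to -0.16 (quantile-normalized FPKM), and that of Dcn from 4.64 to 5.29 when 1 library was left out and was 2.77 on the log2(FPKM + 1) scale, which understates low genes, 2.55 when those values were also quantile-normalized and 4.50 on the log2(FPKM + 0.1) scale. With the replicate block, 3 members were higher and 4 lower, and 3 transcripts were higher and 4 lower. The block was only a check, since the labels do not pair the samples by number. The correlations of same-numbered samples were -0.087, -0.001 and 0.005. Leaving out 1 library, 3 to 4 transcripts were higher and 3 to 4 lower. The Bgn share of the family was 92.31% in Control and 90.89% in rShh with summed copies, and 90.53% in rShh by counts, against 95.44% and 92.14%; the summed copies add reads to Ogn, Omd and Aspn only, and for counts against FPKM the cause was not tested. The Aspn transcript ENSRNOT00000093577 had a log2 change of -0.26 that turned to 0.64 with the replicate block and 0.40 without Control replicate 2 (range with 1 library left out -0.84 to 0.40; edgeR adjusted p = 0.793 and 0.869), and the cause was not tested. The calls of the Ogn transcript ENSRNOT00000093561 (without Control replicate 2 or 3, or rShh replicate 1 or 3) and of the Prelp transcript ENSRNOT00000076610 (with the block, and without Control replicate 1 or 2, or rShh replicate 2) were lost, and the Prelp transcript ENSRNOT00000079116 passed without rShh replicate 2 (3.23, adjusted p = 0.0115). The 6 ratios kept their sign throughout. That of Omd to Ogn, which did not separate the groups in the member rows, ranged from -1.29 to -0.27. Depth limits Epyc, and the Control values of Dcn.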
